A study of Mus musculus with 8 samples.

Results

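The NOTCH genes described here are 9 rows of the deposited table of 18102 genes: the receptors Notch1, Notch2 and Notch3, the ligands Dll1, Jag1 and Jag2, the glycosyltransferase gene Lfng, and the target genes Hes1 and Hey1. They were chosen by name, with earlier results of these data known. All 9 had a row, and 8 had a mean normalised count (reads divided by the library's size factor) of at least 10 over the 8 libraries, the minimum used for testing. Notch3, with a mean of 1.44, fell below that minimum, and the nearest member above it was Dll1, with a mean of 79.1. The RNA was sequenced from NMuMG, an epithelial cell line of the mouse mammary gland. The 4 groups, with 2 libraries each, were KO-labelled cells with TGFβ, WT cells with TGFβ, KO-labelled cells with SB505124 and WT cells with SB505124. KO is the label for RREB1 knockout, and every KO column carries the code KO1. The labels do not say how many clones that code covers. Nor do they say that replicates came from separate cultures, and the p-values therefore describe the spread among these libraries, which may be technical. All cells were serum starved for 6 h. TGFβ was given at 100 pM for 1.5 h, and SB505124, a small molecule that blocks the kinase activity of TGFβ receptors, at 2.5 µM for 6 h. Adding the ligand, lacking the inhibitor and the different duration cannot be told apart in a comparison of these treatments.

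NOTCH receptors are single-pass membrane proteins that bind ligands of the Delta-like and Jagged families on neighbouring cells. Binding exposes the receptor to an ADAM protease and then to gamma-secretase, which frees an intracellular part that enters the nucleus and acts with RBPJ and Mastermind-like coactivators on target genes such as those of the HES and HEY families. In the mammary gland this pathway is known for its part in luminal cell fate, and in several epithelia Jag1 and Hey1 have been described as TGFβ-responsive genes.

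Libraries held 25144204 to 32143113 reads. Rreb1 had 2481 and 2241 normalised counts in KO-labelled cells and 1959 and 1769 in WT cells under TGFβ, and 1327 and 1343 in KO-labelled against 1055 and 1033 in WT cells under SB505124. The reads of the targeted gene were thus not reduced in KO-labelled libraries but higher there, and KO is used only as a name. Whether the protein was lost was not tested, since gene-level read counts do not show it. Of the 7 epithelial markers listed, Cdh1, Krt8, Krt18 and Krt19 had at least 13123 normalised counts in every library, whereas Epcam had no reads in any KO-labelled library and 4.01 to 36.6 in WT libraries, and Cldn7 reached at most 3.72. Cldn3 had no row. The 6 leukocyte markers summed to 488 to 693 over all libraries, of which Lyz2 gave 314 to 466 and Cd68 129 to 202, while Csf1r reached 53.7 and Ptprc 11.6. The 4 endothelial markers summed to at most 40.0, with Cdh5 up to 27.4 and Pecam1 up to 1.93. Of the 3 adipocyte markers listed, Adipoq reached 2.03 and Cidec 12.3, and Plin1 had no row. The 4 basal markers summed to 74.1 to 81.0 in KO-labelled and 49.1 to 57.9 in WT libraries under TGFβ, and to 66.1 to 87.2 in KO-labelled and 17.2 to 19.0 in WT libraries under SB505124. Within these sums Krt5 had 56.8 to 82.1 in KO-labelled and 0 to 3.43 in WT libraries, whereas Krt14 had no reads in KO-labelled libraries, against 37.7 and 46.3 in WT libraries with TGFβ and 3.00 and 6.08 in WT libraries with SB505124. For the 6 fibroblast markers the sums were 379 to 384 and 513 to 669 under TGFβ, and 46.5 to 61.3 and 161 to 164 under SB505124, in KO-labelled and WT libraries in turn. Dcn had at most 0.864 in KO-labelled and 38.9 to 94.1 in WT libraries. Col1a1 averaged 237 and 423 under TGFβ and 13.4 and 35.3 under SB505124, in the same order of genotypes. Pdgfra averaged 137 and 117 under TGFβ and 39.2 and 36.3 under SB505124. Col1a2 reached 13.3, Pdgfrb 2.05 and Lum 1.05. The part of these markers in the results was not tested. In bulk RNA, fewer cells of a kind and less RNA per cell cannot be told apart.

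The ligand genes Jag1 and Dll1 rose with TGFβ in both genotypes, while Jag2 did not pass the test in WT cells and had at most 11.6 normalised counts in KO-labelled cells. Of the receptors Notch1 fell and Notch2 rose, and the target Hey1 fell in both genotypes. In KO-labelled cells all 8 tested NOTCH genes passed the test for TGFβ against SB505124, 5 higher and 3 lower, where 30.9% of the 12498 tested genes did. The Jag2 call among these rested on 21 against 11 reads and was lost with edgeR and with DESeq2. In WT cells 6 of 8 passed, 4 higher and 2 lower, where 43.3% of all tested genes did. Jag2 passed the minimum only through the WT libraries, so its difference between genotypes was built into its selection for testing. The median log2 fold change of the 8 genes was 1.15 in KO-labelled and 0.39 in WT cells, beside -0.02 and -0.01 over all tested genes. Tests are from limma on log2 values, with Benjamini-Hochberg adjustment over all tested genes and a threshold of 0.05, and each log2 fold change is given with its standard error (n = 2 per group).

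**Figure D1:**
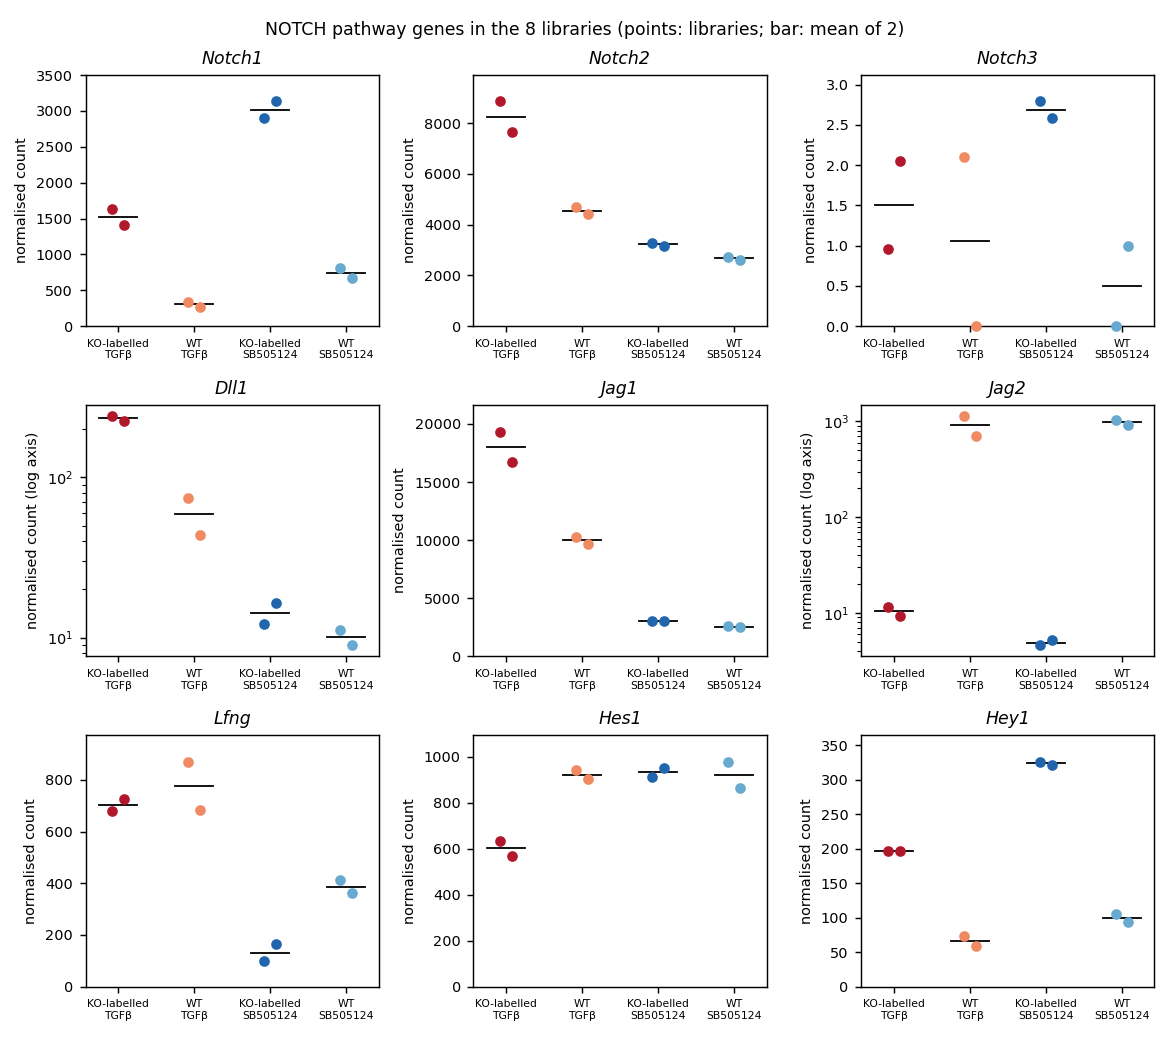
Normalised counts of the 9 NOTCH genes in each library, with points for libraries and a line for the mean of 2; the axes of Dll1 and Jag2 are logarithmic and the others start at 0. Jag2 lies between 4.65 and 11.6 in KO-labelled and between 697 and 1136 in WT libraries, and Hes1 is lowest in the KO-labelled libraries under TGFβ.

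Jag1, which encodes a Jagged ligand, is read from the minus strand of chromosome 2 (chr2:137081456-137116644, GRCm38). Its normalised counts under TGFβ were 19338 and 16745 in KO-labelled cells and 10307 and 9659 in WT cells. Under SB505124 they were 3025 and 3034 in KO-labelled cells and 2593 and 2494 in WT cells. The 4 groups did not overlap, and the order was KO-labelled with TGFβ, WT with TGFβ, KO-labelled with SB505124 and WT with SB505124. TGFβ raised Jag1 5.94-fold in KO-labelled cells (log2 2.57 ± 0.08, limma adjusted p = 1.37e-14) and 3.92-fold in WT cells (log2 1.97 ± 0.08, limma adjusted p = 1.11e-12). The difference of these responses was 0.60 ± 0.12 on the log2 scale (limma adjusted p = 0.00584). That call was lost without WT SB505124 replicate 1 (adjusted p = 0.073) or KO-labelled TGFβ replicate 1 (adjusted p = 0.0764), without the filter on low values (adjusted p = 0.0542) and without a variance trend (adjusted p = 0.13). Between genotypes, Jag1 was 1.80-fold higher in KO-labelled cells under TGFβ (limma adjusted p = 5.02e-08) and 1.19-fold higher under SB505124 (limma adjusted p = 0.0135). The second call was lost without WT SB505124 replicate 2 (adjusted p = 0.104), without KO-labelled SB505124 replicate 1 (adjusted p = 0.0502) and without a variance trend (adjusted p = 0.0549).

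Dll1, a Delta-like ligand gene on chromosome 17 (chr17:15367354-15376872, minus strand, GRCm38), had far fewer reads. It stood at 241 and 226 normalised counts in KO-labelled and 74.7 and 43.4 in WT cells under TGFβ. Under SB505124 it had 12.1 and 16.4 in KO-labelled and 11.1 and 9.01 in WT cells. The group order was that of Jag1, again without overlap, but the genotypes under SB505124 did not pass the test (log2 0.45 ± 0.28, limma adjusted p = 0.183; with quantile normalisation 0.98 and adjusted p = 0.00648). TGFβ raised Dll1 15.5-fold in KO-labelled cells (log2 3.95 ± 0.28, limma adjusted p = 2.07e-09) and 5.26-fold in WT cells (log2 2.39 ± 0.28, limma adjusted p = 2.28e-06). Under TGFβ it was 4.03-fold higher in KO-labelled than in WT cells (limma adjusted p = 5.98e-06). The difference of responses was 1.56 ± 0.40 (limma adjusted p = 0.043), and this call was lost in 14 of 17 alternatives, with adjusted p from 0.00453 to 0.246 over all of them. It was lost on leaving out any library except WT TGFβ replicate 1 and KO-labelled SB505124 replicate 2. The library kit does not mark the strand, and A930024N18Rik, annotated on the opposite strand, shares up to 867 exon bases with Dll1, so reads of the pair cannot be told apart there.

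Jag2, the second Jagged ligand gene (chr12:112907819-112929776, minus strand, GRCm38), differed mainly by genotype. Its normalised counts under TGFβ were 11.6 and 9.23 in KO-labelled cells and 1136 and 697 in WT cells. Under SB505124 the values were 4.65 and 5.18 in KO-labelled against 1048 and 926 in WT cells. The ratio of the means was 88.2-fold lower in KO-labelled cells under TGFβ, on 21 against 1689 reads (95% counting interval 57.9 to 144), and 201-fold lower under SB505124, on 11 against 1959 reads (interval 112 to 401). The fitted log2 fold changes were -6.30 ± 0.22 and -7.38 ± 0.22, values that the selection of Jag2 through its WT libraries leaves as a description. The counting intervals do not cover the spread between libraries. The standard errors come from a spread shared by all groups, so they do not show the counting error of the few KO-labelled reads. TGFβ against SB505124 gave a log2 fold change of 0.94 ± 0.22 in KO-labelled cells (limma adjusted p = 0.00261), a call on 21 against 11 reads that was lost in 4 of 18 alternatives, among them edgeR (adjusted p = 0.25) and DESeq2 (adjusted p = 0.145). In WT cells the value was -0.15 ± 0.22 (95% interval -0.60 to 0.31, limma adjusted p = 0.613), and the 2 WT TGFβ libraries lay on either side of the WT SB505124 libraries. The response was higher by 1.09 ± 0.31 in KO-labelled than in WT cells, which did not pass (limma adjusted p = 0.0656). It passed without WT TGFβ replicate 1 (adjusted p = 0.00879), KO-labelled SB505124 replicate 2 (adjusted p = 0.0261) or KO-labelled TGFβ replicate 2 (adjusted p = 0.0436).

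The genes next to Jag2 were looked up after its values had been seen. Among protein-coding genes of the table, the nearest on the lower-coordinate side, Gpr132, averaged 4.49 in KO-labelled and 4.83 in WT cells under TGFβ, and the next, Cdca4, 1579 and 2605. On the other side Nudt14 averaged 427 and 568, Brf1 1151 and 1453 and Btbd6 776 and 790. Of these genes none showed a difference of the size seen for Jag2, and Gpr132 was too low to show one.

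RefSeq promoter windows on GRCm38.p6 (250 bases before to 50 after a start) were matched for 7 of the 9 genes, and those of the ligands are printed because Dll1 and Jag1 had the highest TGFβ responses in both genotypes and Jag2 the lowest genotype values. They were searched on both strands for TGGGAA, the core of the RBPJ site, CAGACA, a SMAD-binding element with its flank, and GGCGCC, a GC-rich SMAD site that is its own reverse complement. Capitals mark matches, and no 2 matches overlapped. Sequences run 5′ to 3′ on the gene's strand. The upstream Dll1 start has 1 match to CAGACA, read as TGTCTG 148 bases before the start, and the downstream start has 1 such match 123 bases before it and 1 match to GGCGCC 169 bases before it. The windows of Jag1 and Jag2 hold none of the 3 motifs, and that of Jag2 is 86% G and C, beside a median of 52.7% over 32851 windows. Of those windows 21.0% hold CAGACA, 11.9% GGCGCC and 25.6% TGGGAA, so these matches are a description only.
Dll1 upstream start, chr17:15376883-15377182, minus strand: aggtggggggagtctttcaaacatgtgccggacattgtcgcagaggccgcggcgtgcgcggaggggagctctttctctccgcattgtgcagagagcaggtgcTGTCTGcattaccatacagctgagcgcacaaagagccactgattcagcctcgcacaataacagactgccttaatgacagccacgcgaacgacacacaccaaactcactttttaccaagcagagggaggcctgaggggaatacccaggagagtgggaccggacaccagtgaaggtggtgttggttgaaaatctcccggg
Dll1 downstream start, chr17:15375774-15376073, minus strand: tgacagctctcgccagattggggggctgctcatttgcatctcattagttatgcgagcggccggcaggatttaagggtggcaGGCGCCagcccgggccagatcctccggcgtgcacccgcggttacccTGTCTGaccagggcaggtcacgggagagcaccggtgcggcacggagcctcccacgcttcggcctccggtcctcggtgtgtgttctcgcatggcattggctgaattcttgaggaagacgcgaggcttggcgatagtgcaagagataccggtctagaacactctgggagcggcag
Jag1, chr2:137116471-137116770, minus strand: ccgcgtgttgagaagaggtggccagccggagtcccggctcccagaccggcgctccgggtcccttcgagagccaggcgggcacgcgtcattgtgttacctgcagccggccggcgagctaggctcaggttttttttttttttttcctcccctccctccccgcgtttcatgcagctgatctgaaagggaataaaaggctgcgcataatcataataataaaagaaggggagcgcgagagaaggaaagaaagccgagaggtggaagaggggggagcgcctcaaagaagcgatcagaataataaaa
Jag2, chr12:112929446-112929745, minus strand: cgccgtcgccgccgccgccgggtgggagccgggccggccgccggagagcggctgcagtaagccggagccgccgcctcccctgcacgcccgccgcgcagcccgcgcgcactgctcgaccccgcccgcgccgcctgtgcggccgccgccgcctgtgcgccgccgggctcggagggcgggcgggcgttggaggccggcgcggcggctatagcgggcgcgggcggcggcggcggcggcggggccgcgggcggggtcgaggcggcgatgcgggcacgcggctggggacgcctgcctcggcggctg

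Levels of different genes were compared per kb of annotated exons (GENCODE M21). Jag1 made up 98.2% ± 0.1 of the summed normalised count per kb of the 3 ligands in KO-labelled and 92.2% ± 2.1 in WT cells under TGFβ (SD, n = 2). Under SB505124 its share was 99.2% ± 0.1 in KO-labelled and 75.2% ± 1.1 in WT cells, where Jag2 held 24.4% ± 1.1. Dll1, in spite of its large fold change, stayed at 1.76% ± 0.10 in KO-labelled and 0.75% ± 0.23 in WT cells under TGFβ. The summed ligand level per kb was 3153 ± 317 in KO-labelled and 1859 ± 128 in WT cells under TGFβ, and 524 ± 1.93 and 581 ± 24.7 under SB505124, in the same order of genotypes.

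**Figure D2:**
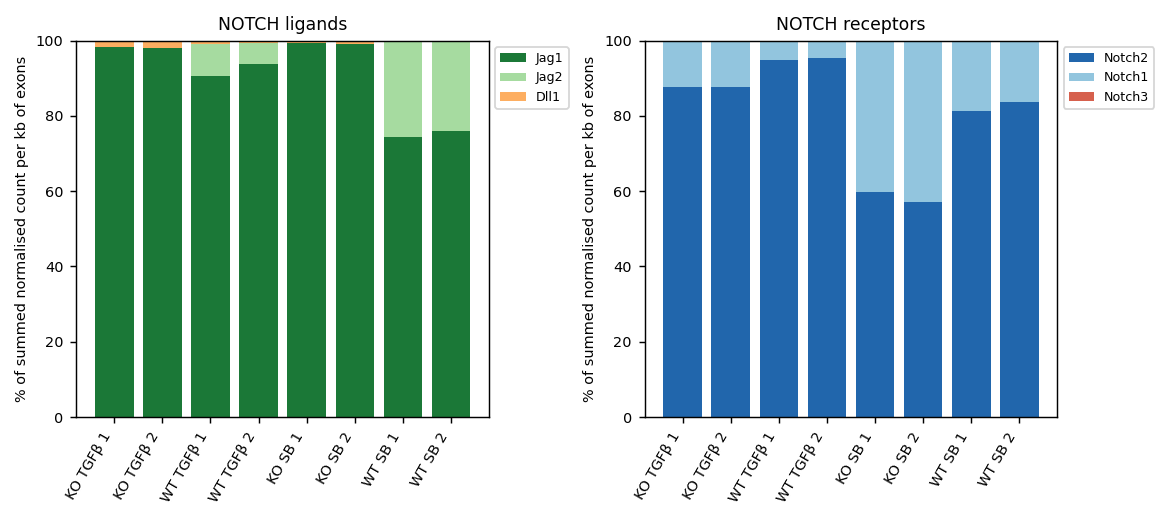
Share of each of Jag1, Jag2 and Dll1 (left) and each of Notch1, Notch2 and Notch3 (right) in their summed normalised count per kb of exons, 1 bar per library, with axes from 0 to 100%. Jag2 is visible in the WT libraries and at most 0.142% in KO-labelled ones, and the Notch1 share is largest in KO-labelled cells with SB505124.

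The receptors moved in opposite directions: TGFβ lowered Notch1 and raised Notch2 in both genotypes. Notch1, on chromosome 2 (chr2:26457903-26516663, minus strand, GRCm38), had 1639 and 1413 normalised counts in KO-labelled and 336 and 271 in WT cells under TGFβ. Under SB505124 it had 2907 and 3132 in KO-labelled against 816 and 676 in WT cells. No groups overlapped, and the order was KO-labelled with SB505124, KO-labelled with TGFβ, WT with SB505124 and WT with TGFβ. Notch1 fell by 0.99 ± 0.11 on the log2 scale in KO-labelled cells (limma adjusted p = 1.65e-06) and by 1.30 ± 0.11 in WT cells (limma adjusted p = 5.03e-08). Between genotypes the responses differed by 0.31 ± 0.16 (95% interval -0.03 to 0.65), which did not pass (limma adjusted p = 0.348). In KO-labelled cells it was 5.03-fold higher than in WT cells under TGFβ (limma adjusted p = 3.55e-12) and 4.06-fold higher under SB505124 (limma adjusted p = 2.64e-11). Genes annotated on the opposite strand share up to 1068 exon bases with Notch1, and Gm42820, on the same strand, shares up to 541 with Notch2.

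Notch2 (chr3:98013527-98150361, plus strand, GRCm38) had 8852 and 7631 normalised counts in KO-labelled and 4692 and 4399 in WT cells under TGFβ, and 3283 and 3156 in KO-labelled against 2716 and 2617 in WT cells under SB505124. It thus followed the order of Jag1 and Dll1, with no overlap between groups. TGFβ raised it 2.55-fold in KO-labelled cells (log2 1.35 ± 0.08, limma adjusted p = 2.08e-10) and 1.70-fold in WT cells (log2 0.77 ± 0.08, limma adjusted p = 6.95e-07). The response was larger by 0.58 ± 0.12 in KO-labelled cells (limma adjusted p = 0.00773), a call lost under 4 of 17 alternatives, among them without WT SB505124 replicate 1 (adjusted p = 0.0849) and without KO-labelled TGFβ replicate 1 (adjusted p = 0.0945). Between genotypes Notch2 was 1.81-fold higher in KO-labelled cells under TGFβ (limma adjusted p = 5.24e-08) and 1.21-fold higher under SB505124 (limma adjusted p = 0.009). The second call was lost without WT SB505124 replicate 2 (adjusted p = 0.078) or KO-labelled SB505124 replicate 1 (adjusted p = 0.0579).

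Notch3 had 0 to 3 reads per library and 12 in all, and no fold change is given for it. A receptor sum was taken over Notch1, Notch2 and Notch3. Per kb of exons, Notch2 made up 87.7% ± 0.01 of this sum in KO-labelled and 95.2% ± 0.52 in WT cells under TGFβ, and 58.4% ± 1.96 and 82.5% ± 1.52 under SB505124 (SD, n = 2). Nearly all the rest was Notch1, at 41.5% ± 1.96 in KO-labelled cells and 17.4% ± 1.55 in WT cells under SB505124. The receptor sum per kb was 872 ± 91.2 in KO-labelled and 443 ± 22.6 in WT cells under TGFβ, and 511 ± 2.82 and 300 ± 13.3 under SB505124. Notch4, left out of the sum, had 2.12 per kb in KO-labelled and 6.20 in WT cells under TGFβ, and 1.22 and 2.19 under SB505124. These shares are descriptions of 2 libraries a group and were not tested. They also depend on the exon lengths used, 14.2 kb for Notch1 and 10.8 kb for Notch2, which the SDs do not cover. Before division by length, Notch1 averaged 3019 and Notch2 3220 in KO-labelled cells under SB505124.

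Lfng encodes lunatic fringe, a Golgi enzyme that adds N-acetylglucosamine to O-fucose on NOTCH receptors and so shifts their preference between Delta-like and Jagged ligands. Its normalised counts under TGFβ were 680 and 727 in KO-labelled and 869 and 683 in WT cells, 2 groups that overlapped. Under SB505124 it had 98.7 and 163 in KO-labelled and 411 and 361 in WT cells, with no overlap. TGFβ raised Lfng 5.50-fold in KO-labelled cells (log2 2.46 ± 0.17, limma adjusted p = 1.31e-09) and 2.00-fold in WT cells (log2 1.00 ± 0.17, limma adjusted p = 0.000132). The difference of responses was 1.46 ± 0.24 (limma adjusted p = 0.00157), lost under 2 of 17 alternatives, without the filter on low values (adjusted p = 0.0631) and without a variance trend (adjusted p = 0.147). Under SB505124 Lfng was 3.02-fold lower in KO-labelled cells (limma adjusted p = 2.18e-07). Under TGFβ the log2 fold change between genotypes was -0.13 ± 0.17 (95% interval -0.49 to 0.23, limma adjusted p = 0.515), and it turned to 0.04 without WT TGFβ replicate 1. The Lfng window is shown because it was the only one of the 7 genes with matches to the RBPJ core, 1 in each orientation, at 135 and 108 bases before the start.
Lfng, chr5:140607091-140607390, plus strand: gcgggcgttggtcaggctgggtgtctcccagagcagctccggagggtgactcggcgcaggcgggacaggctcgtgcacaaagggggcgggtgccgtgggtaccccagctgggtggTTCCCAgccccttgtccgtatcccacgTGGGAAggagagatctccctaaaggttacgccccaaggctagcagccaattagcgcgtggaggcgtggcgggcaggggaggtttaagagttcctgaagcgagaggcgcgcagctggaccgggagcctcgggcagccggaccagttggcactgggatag

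The target genes did not rise with the ligands. Hes1 (chr16:30064384-30067796, plus strand, GRCm38), which encodes a basic helix-loop-helix repressor that also limits its own transcription, had 632 and 570 normalised counts in KO-labelled and 942 and 903 in WT cells under TGFβ. Under SB505124 it had 914 and 954 in KO-labelled and 978 and 865 in WT cells. The KO-labelled libraries with TGFβ lay below all the others, and the other 3 groups overlapped. TGFβ lowered Hes1 by a log2 fold change of -0.64 ± 0.10 in KO-labelled cells (1.55-fold lower, limma adjusted p = 3.93e-05), against 0.00 ± 0.10 in WT cells (95% interval -0.20 to 0.20, limma adjusted p = 0.98). The difference of responses was -0.64 ± 0.14 (limma adjusted p = 0.0113). That call was lost without WT SB505124 replicate 2 (adjusted p = 0.114) or KO-labelled TGFβ replicate 2 (adjusted p = 0.0558), without the filter on low values (adjusted p = 0.058) and without a variance trend (adjusted p = 0.122). Under TGFβ Hes1 was 1.54-fold lower in KO-labelled than in WT cells (limma adjusted p = 1.73e-05), and under SB505124 the log2 fold change was 0.02 ± 0.10 (95% interval -0.18 to 0.22, limma adjusted p = 0.865).

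Hey1 (chr3:8663359-8667256, minus strand, GRCm38), a related repressor gene, had 196 and 197 normalised counts in KO-labelled and 73.7 and 58.3 in WT cells under TGFβ, and 326 and 321 in KO-labelled and 105 and 94.1 in WT cells under SB505124. Its group order was that of Notch1, without overlap. TGFβ lowered Hey1 1.64-fold in KO-labelled cells (log2 -0.72 ± 0.16, limma adjusted p = 0.00165) and 1.51-fold in WT cells (log2 -0.60 ± 0.16, limma adjusted p = 0.00469). The WT call was lost without WT SB505124 replicate 1 (adjusted p = 0.0551) or WT TGFβ replicate 2 (adjusted p = 0.0571). KO-labelled minus WT, the responses differed by -0.12 ± 0.22 (95% interval -0.58 to 0.34, limma adjusted p = 0.845), a value that turned to 0.05 without WT TGFβ replicate 1. Between genotypes Hey1 was 2.97-fold higher in KO-labelled cells under TGFβ (limma adjusted p = 7e-08) and 3.23-fold higher under SB505124 (limma adjusted p = 2.98e-08).

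**Figure D3:**
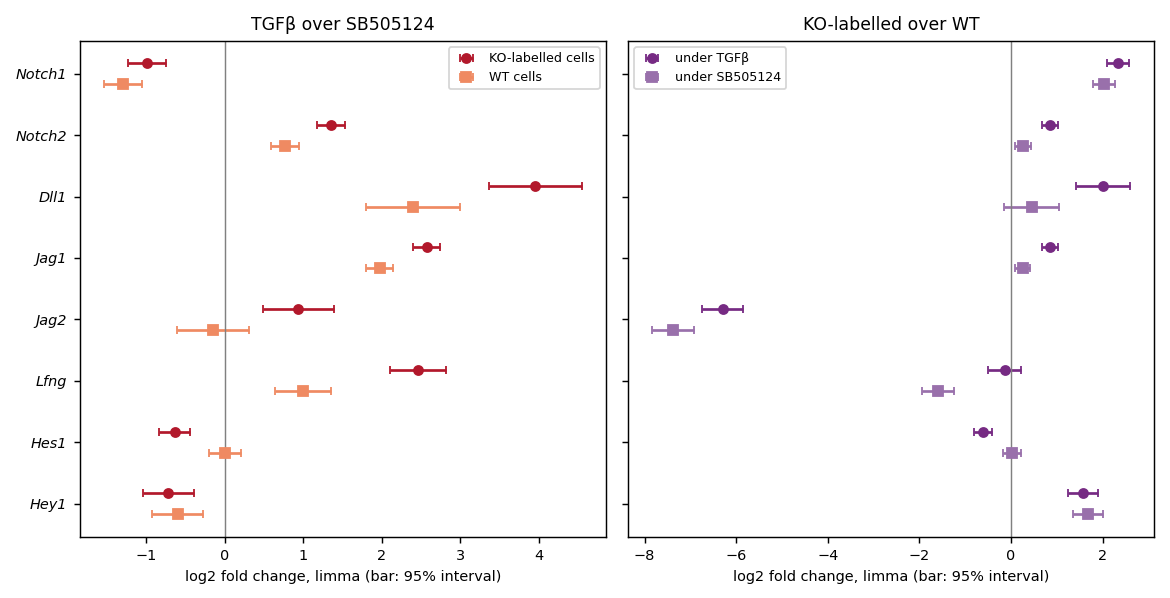
Log2 fold changes of the 8 tested NOTCH genes with 95% intervals from limma, for TGFβ over SB505124 in KO-labelled and WT cells (left) and for KO-labelled over WT cells under TGFβ and SB505124 (right). Dll1 has the highest TGFβ responses, 3.95 and 2.39, and Jag2 the lowest genotype values, -6.30 and -7.38.

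Between genotypes, 7 of the 8 genes passed under TGFβ, 5 higher and 2 lower in KO-labelled cells, where 62.9% of all tested genes did. Under SB505124 6 passed, 4 higher and 2 lower, beside 56.9% of all tested genes. Jag2 is among the lower calls under both treatments, and its genotype difference was built into its selection for testing. The difference of TGFβ responses passed for 5 of 8, Notch2, Dll1, Jag1 and Lfng toward KO-labelled cells and Hes1 toward WT cells, beside 2.82% of all tested genes. The median difference of the 8 genes was 0.59 on the log2 scale, and that of all tested genes 0.01. The comparisons share libraries, so these counts are not independent of each other. The count of 5 was 2 without WT SB505124 replicate 1 or KO-labelled TGFβ replicate 1, 3 without WT SB505124 replicate 2, and 0 in limma without the filter on low values or without a variance trend, where 6 members had an unadjusted p under 0.05 in each. edgeR and DESeq2 on the recovered reads called 4 each.

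**Figure D4:**
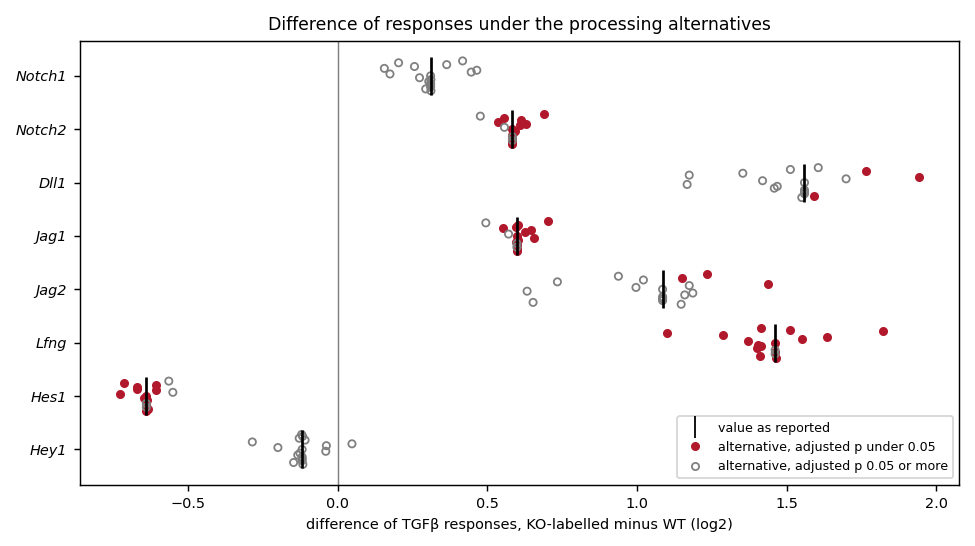
Difference of the TGFβ responses, KO-labelled minus WT, of the 8 tested NOTCH genes on the log2 scale, with a bar for the value as reported and 1 point for each of 17 alternatives, filled where the adjusted p was under 0.05. The sign of Hey1 turned in 1 alternative and that of the other 7 genes in none, while filled and open points are mixed for Notch2, Dll1, Jag1, Jag2, Lfng and Hes1.

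A wider list of 50 pathway genes was chosen by role in the pathway, with earlier results of these data known. Of these genes 48 were in the table and 41 above the minimum. With TGFβ in KO-labelled cells 6 rose and 4 fell of 41, beside 15.1% and 15.8% of all tested genes, and in WT cells 8 rose and 12 fell, beside 20.2% and 23.2%. Their median log2 fold changes were -0.08 in KO-labelled and -0.11 in WT cells. KO-labelled against WT cells gave 18 higher and 13 lower under TGFβ, beside 32.7% and 30.2%, and 10 higher and 15 lower under SB505124, beside 29.2% and 27.7%. The lower calls include Neurl1a, Nrarp and Hey2, which reached the minimum mean through their WT libraries, so that their genotype differences were built into their selection. The difference of responses passed for 3, of which 2 were higher and 1 lower in KO-labelled cells (2.25% and 0.568% of all tested genes).  The 10 calls in KO-labelled cells were 6 without KO-labelled TGFβ replicate 2, and the count of 3 was 7 without WT TGFβ replicate 1 or KO-labelled SB505124 replicate 2.

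Of the proteases, 10 of 10 were tested, and with TGFβ 2 rose and none fell in KO-labelled cells, while 2 rose and 2 fell in WT cells. Over all tested genes 15.1% rose and 15.8% fell in KO-labelled cells, and 20.2% and 23.2% did in WT cells, so these shares were near the background. Furin, which encodes the convertase that cuts NOTCH precursors in the Golgi, averaged 14663 in KO-labelled cells with TGFβ against 5883 with SB505124 (log2 1.32 ± 0.11, limma adjusted p = 3.02e-08). In WT cells it averaged 9470 against 5566 (log2 0.76 ± 0.11, limma adjusted p = 3.78e-05). Adam10 and Adam17, which encode ADAM proteases, differed between genotypes in opposite directions: under SB505124 Adam10 was higher (log2 0.28 ± 0.08, limma adjusted p = 0.00597) and Adam17 lower (log2 -0.54 ± 0.08, limma adjusted p = 1.37e-05) in KO-labelled cells. The Adam10 call was lost without WT SB505124 replicate 2 (adjusted p = 0.0794) or KO-labelled SB505124 replicate 1 (adjusted p = 0.052). All 3 tested glycosylation genes were lower in KO-labelled cells under both treatments, beside 30.2% of all tested genes under TGFβ and 27.7% under SB505124. Under SB505124 the O-glucosyltransferase gene Poglut1 had a log2 fold change of -0.60 ± 0.08, the O-fucosyltransferase gene Pofut1 -0.60 ± 0.10 and the fringe gene Rfng -0.71 ± 0.12 (limma adjusted p = 3.51e-06, 5.35e-05 and 7.11e-05). None of these 3 passed for TGFβ in either genotype.

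Of the ubiquitin ligases and endocytic regulators, 12 were tested. Neurl1a, whose product ubiquitinates ligands, averaged 12.5 ± 2.66 in KO-labelled against 399 ± 18.6 in WT cells under TGFβ and 6.15 ± 4.74 against 239 ± 14.9 under SB505124 (SD, n = 2), values that the selection through WT libraries leaves as a description. Its relative Neurl1b was higher in KO-labelled cells, at 769 against 445 under TGFβ (log2 0.79 ± 0.09, limma adjusted p = 4.41e-07) and 1936 against 819 under SB505124 (log2 1.24 ± 0.09, limma adjusted p = 1.01e-09). TGFβ lowered Neurl1b in KO-labelled (log2 -1.33 ± 0.09, limma adjusted p = 8.6e-10) and WT cells (log2 -0.88 ± 0.09, limma adjusted p = 3.52e-07). Fbxw7, which encodes the F-box protein that marks intracellular NOTCH for degradation, averaged 388 in KO-labelled and 773 in WT cells under TGFβ. TGFβ raised it in WT cells (log2 0.87 ± 0.11, limma adjusted p = 4.1e-06), and its response was lower in KO-labelled cells by -0.89 ± 0.15 (limma adjusted p = 0.00222).

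Among 11 nuclear cofactors, Tle3, a Groucho-family corepressor gene, rose with TGFβ in KO-labelled cells to 3284 against 1027 with SB505124 (log2 1.68 ± 0.09, limma adjusted p = 2.07e-11). In WT cells it reached 2756 against 1654 (log2 0.74 ± 0.09, limma adjusted p = 2.52e-06), and the difference of responses was 0.95 ± 0.12 (limma adjusted p = 0.000202). Spen, the gene of an RBPJ-binding corepressor, fell in WT cells (log2 -0.80 ± 0.10, limma adjusted p = 5.59e-06), and its response was higher by 0.60 ± 0.14 in KO-labelled cells (limma adjusted p = 0.0304). The Spen difference was lost without WT SB505124 replicate 1 (adjusted p = 0.239), WT SB505124 replicate 2 (adjusted p = 0.0515), WT TGFβ replicate 2 (adjusted p = 0.0761) or KO-labelled TGFβ replicate 1 (adjusted p = 0.249). Without a variance trend none of the differences of Fbxw7, Tle3 and Spen passed (adjusted p = 0.0706, 0.0626 and 0.263).

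Other targets and ligands were mostly scarce. Nrarp, a NOTCH target that encodes a feedback inhibitor of the pathway, was also selected through its WT libraries and had 1 read over both KO-labelled libraries against 81 in WT libraries under TGFβ (92.04-fold lower, 95% counting interval 15.6 to 3577). Under SB505124 it had no reads in KO-labelled libraries against 76 in WT libraries, at least 28.5-fold lower with 3 reads over the group taken as the floor. An overlapping gene on the opposite strand, Gm38287, shares up to 2051 of the 2582 exon bases of Nrarp, so reads of the pair cannot be told apart there. Hey2, a relative of Hey1, had 3.85 and 0 normalised counts in KO-labelled and 13.7 and 11.4 in WT cells under TGFβ, and 0 and 6.91 in KO-labelled against 32.4 and 26.0 in WT cells under SB505124. These few reads, 4 against 23 and 8 against 58, are given as a description, since Hey2 too was selected through its WT libraries. Notch4, the remaining receptor gene, averaged 17.1 in KO-labelled and 49.96 in WT cells under TGFβ (log2 -1.59 ± 0.40, limma adjusted p = 0.00207), a call lost without KO-labelled TGFβ replicate 1 (log2 -0.96, adjusted p = 0.0614). Dlk2, which encodes a non-canonical ligand, fell with TGFβ in WT cells (log2 -0.93 ± 0.17, limma adjusted p = 0.000223).

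By Pearson's r of log2 values over the 8 libraries, the genes most like Dll1 were Stc2 and Arhgef18 (r = 0.997 for both), and those most like Jag1 were D8Ertd82e (r = 0.999) and Slc7a6 (r = 0.997). Notch1 was matched most closely by Tnfrsf21 (r = 0.998) and Gpr85 (r = 0.997), and Hes1 by Nudt13 (r = 0.958) and Cep152 (r = 0.955). With 4 groups of 2, such values mostly compare 4 group means, and they are given as a description. D8Ertd82e averaged 3753 in KO-labelled and 1619 in WT cells under TGFβ, and 289 and 233 under SB505124. Gpr85 averaged 161 in KO-labelled and 27.3 in WT cells under TGFβ, and 392 and 79.1 under SB505124.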

How the data were processed

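The 8 RNA-seq libraries were made with a TruSeq v2 kit, per the labels; that chemistry keeps no strand information. Values in the deposited table are signal, here read counts that the authors divided by each library's size factor. The submitters' processing notes name FastQC 0.11.5, HTSeq 0.6.1p1, DESeq2 3.4 and mm10, and the aligner is not given in the sources used here. The value worth 1 read was found for each library, and dividing by it gave whole reads for 100% of values (tolerance 0.01), hence size factors of 0.875 to 1.16. Per-library depths of 25144204 to 32143113 reads limit the precision of low genes.

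The 12498 genes averaging 10 or more were tested with limma 3.58.1 (R 4.3.3) on log2(value + 1), a scale that understates changes of low genes, with a variance trend, 4 group means and 4 residual degrees of freedom (the prior added 14.3). P-values were Benjamini-Hochberg adjusted over all tested genes. Alternatives were edgeR 4.0.16 and DESeq2 1.42.0 on the recovered reads, other pseudocounts, filters and normalisation, and each library left out. No gene named here is among the 4 rows with a repeated name. Exon lengths and coordinates come from GENCODE M21 (GRCm38, which is mm10) and promoters from RefSeq (GRCm38.p6).

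The members and lists were chosen with earlier results of these data known. All 9 NOTCH genes were named, with up to 3 genes of each role of the wider list having the smallest adjusted p past 0.05, and the 2 genes most like each of Dll1, Jag1, Notch1 and Hes1 among those with a mean of at least 50, predicted genes left out. One gene that this rule names is not reported here.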

Additional observations from a re-analysis of the deposited data

Results flagged for a closer look

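The response to TGFβ differed between genotypes, by the limma test of the difference itself, for 5 NOTCH genes. These calls depended on the processing. All 5 were lost in limma without the filter on low values or without a variance trend, and that of Dll1 also with edgeR and with DESeq2. In log2 units the response in KO-labelled minus that in WT cells was 0.58 for Notch2 (1.35 against 0.77), 1.56 for Dll1 (3.95 against 2.39), 0.60 for Jag1 (2.57 against 1.97), 1.46 for Lfng (2.46 against 1.00) and -0.64 for Hes1 (-0.64 against 0.00). Lfng started lower in KO-labelled than in WT cells under SB505124 (131 against 386 normalised counts), while the other 4 genes started at 1.01-fold to 1.37-fold the WT level. The part of the starting level in these differences was not tested. With 2 libraries per group, no sample was examined as an outlier.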

How the results depend on the processing

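Of 712 recomputed log2 fold changes of the 8 tested genes, 661 kept their direction and side of the threshold, 39 lost the call, 4 gained it and 8 changed sign. No sign change was of a called value. Leaving out 1 library gave Jag2 -0.50 to 0.20 and Hes1 -0.085 to 0.092 for TGFβ in WT cells, Hey1 -0.29 to 0.047 for the difference of responses, Lfng -0.31 to 0.040 between genotypes under TGFβ and Hes1 -0.067 to 0.11 between genotypes under SB505124, where edgeR gave -0.0037. Of 783 recomputed log2 fold changes of the named genes of the wider list, over the comparisons in which they passed, 744 kept their call and 39 lost it. For the difference of responses, limma without the filter on low values called 0 members and 134 genes in all, and limma without a variance trend called 0 members, 0 genes of the wider list (7 at an unadjusted p under 0.05, and 3 each by edgeR and DESeq2) and 47 in all, against 5, 3 and 352. The cause was not tested. Leaving out 1 library gave 2 to 6 members, 2 to 7 genes of the wider list and 141 to 1027 genes in all for the difference of responses. It gave 6 to 13 genes of the wider list and 2320 to 4410 in all for TGFβ in KO-labelled cells, against 10 and 3864. The most, 1027, came without WT TGFβ replicate 1 and the fewest, 141, without WT SB505124 replicate 1. Where a group had 1 library left, that library was assumed to vary like the others.

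The labels do not say what a replicate number marks, and same-numbered libraries did not deviate together (Pearson r from -0.20 to 0.20 over the 6 pairs of groups). With the replicate block the counts of members were 8 and 6 for TGFβ in KO-labelled and WT cells, 4 for the difference of responses (Dll1 lost, adjusted p = 0.0819), and 7 and 6 for the genotypes under TGFβ and SB505124. Depth limits Notch3, Jag2 in KO-labelled cells and Dll1 under SB505124.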
